A study of Arabidopsis thaliana with 12 samples.

Results

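Camalexin is the main phytoalexin of Arabidopsis thaliana, a sulfur-containing indole compound that is toxic to many fungi and is made only after infection or other stress. Its synthesis starts from tryptophan, which CYP79B2 and its close relative CYP79B3 turn into indole-3-acetaldoxime, a branch point that also feeds indole glucosinolates and auxin. CYP71A13 and its relative CYP71A12 dehydrate the oxime to indole-3-acetonitrile, glutathione supplies the sulfur and a cysteine unit, and PAD3 (CYP71B15) closes the ring and finishes camalexin. The genes described here are these 5 cytochrome P450 genes, CYP79B2 (AT4G39950), CYP79B3 (AT2G22330), CYP71A12 (AT2G30750), CYP71A13 (AT2G30770) and PAD3 (AT3G26830). They were found by their locus names among 25665 loci on the array, and each had 1 probe. They were chosen with their values on these arrays known, so their levels and differences are given as a description with standard errors (SE), with no test. All 5 were among the 20266 loci carried into the fit, for which 1 group or more had to show signal well above background on each of its 4 arrays.

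RNA came from whole seedlings of accession Columbia-0 at 3 weeks of age, grown on agar medium with sucrose under 16 h of light. There were 4 samples of each of 3 groups, namely wild type (wt), 35S:MYB106SRDX:NOS and 35S:WIN1SRDX:NOS, each hybridised to an Agilent array of its own. The 12 arrays, read in 1 colour, sat on 3 slides, and every slide carried all groups. In both transgenic lines the constitutive 35S promoter drives a transcription factor fused to SRDX, a short peptide that makes the fusion protein repress its targets. MYB106 takes part in epidermal and trichome development, and WIN1 (SHN1) is an AP2/ERF factor of cuticle formation. Several seedlings of a plate were harvested for each sample. The labels name neither separate plates nor independent transgenic lines, so the errors and p-values cover the variation among these RNA samples alone, and part of it may be technical.

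Levels are given in log2 units with the array's 75th percentile set to 0. They order the samples for 1 gene, and the level of one probe was not set against that of another. Per array, 59.3% to 64.2% of spots were well above background, no spot was saturated, and genes had a median SD of 0.14 among wild-type arrays, 0.31 among MYB106SRDX arrays and 0.28 among WIN1SRDX arrays. Before scaling, the median intensity of an array differed by group. It was 67.3 to 85.6 in MYB106SRDX, 90.1 to 142 in WIN1SRDX and 127 to 144 in wild type. The MYB106 probe read 2.77 to 4.81 in MYB106SRDX and -3.12 to -1.53 in wild type, and the WIN1 probe read 5.39 to 5.86 in WIN1SRDX and -9.13 to -6.33 in wild type. WIN1SRDX replicate 2 had 181 spots marked as outliers, against 2 to 17 on the other arrays. The seedlings held both leaf and root RNA by their markers, but not to the same degree. Of 11 root markers, 9 fell and none rose in MYB106SRDX (median difference -5.11, and COBL9, EXPA18, CASP5 and TIP2;3 above background on none of its arrays), while in WIN1SRDX 4 fell and 3 rose (median 0.49, CASP5 on none of its arrays). Their summed level, in multiples of the 75th percentile, was 34.4 to 37.7 in wild type, 14.4 to 39.5 in MYB106SRDX and 37.8 to 64.5 in WIN1SRDX. Of 10 leaf markers, 2 fell in MYB106SRDX and 1 in WIN1SRDX and none rose. Their summed level was 809 to 1140, 860 to 1107 and 1019 to 1131 in MYB106SRDX, WIN1SRDX and wild type. The part of these shifts in the results was not tested, and in whole seedlings fewer cells of a type and less RNA per cell cannot be told apart.

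In both repressor lines 4 of the 5 genes stood above wild type, with no overlap between arrays. Among the 4 genes detected in wild type, CYP71A12 showed the largest difference, PAD3 came next and CYP79B2 after it, while CYP79B3 was the exception, with a mean below wild type. CYP71A13 was undetected in wild type, so its difference is given only as a lower bound on the scale used here and has no place in this order. Every one of the 4 raised genes had a higher mean in MYB106SRDX than in WIN1SRDX. Among all tested loci, 24.3% lay above and 28.3% below wild type without overlap in MYB106SRDX, and 22% above and 21% below in WIN1SRDX. These comparisons share the wild-type arrays, and the genes were chosen with them in view, so nothing is read from the counts of 4 in 5.

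**Figure D1:**
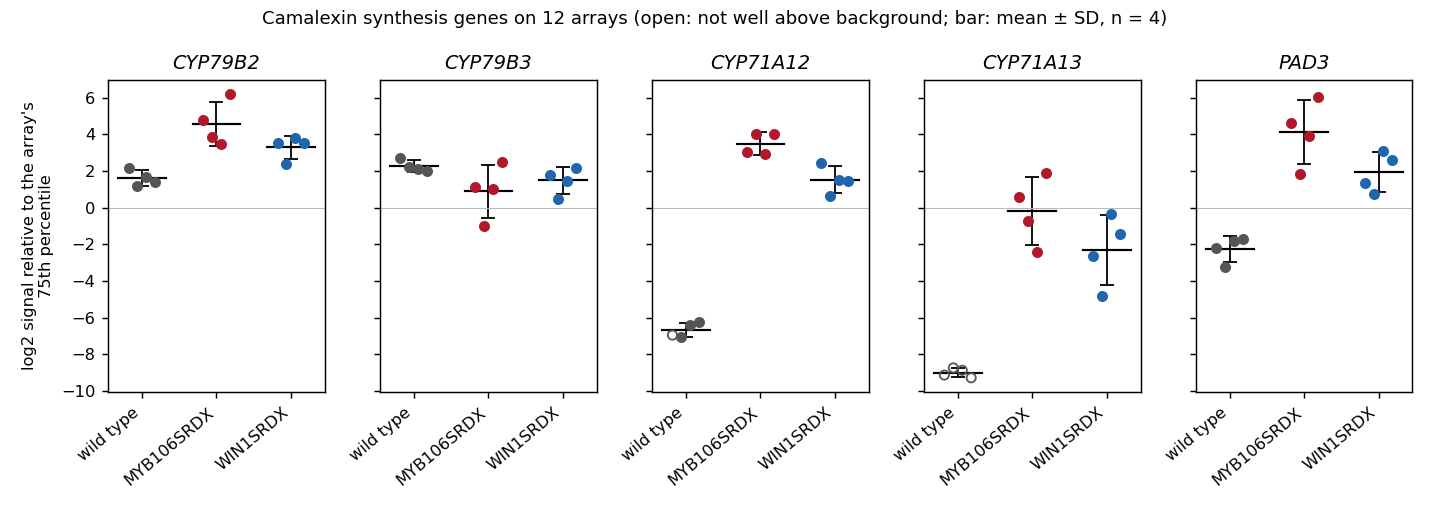
Levels of the 5 camalexin genes on each array as log2 signal relative to the array's 75th percentile, by group, with mean ± SD (n = 4) and open circles for signals not well above background. The wild-type arrays of CYP71A12 lie between -7.03 and -6.24, far below both lines, whereas the wild-type arrays of CYP79B3, between 2.02 and 2.73, lie at or above most arrays of the lines.

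At the entry of the pathway the paralogs CYP79B2 and CYP79B3 differed from each other. CYP79B2 read 4.77, 3.85, 3.48 and 6.21 in replicates 1 to 4 of MYB106SRDX, 3.52, 2.38, 3.78 and 3.53 in WIN1SRDX, and 2.16, 1.19, 1.70 and 1.39 in wild type. All arrays of both lines were above the highest wild-type array, WIN1SRDX replicate 2 by the smallest margin. The group means were 4.57 ± 1.22 (SD, n = 4), 3.30 ± 0.62 (SD, n = 4) and 1.61 ± 0.42 (SD, n = 4). The difference from wild type was 2.96 ± 0.54 (SE) in MYB106SRDX, or 7.81-fold, and 1.69 ± 0.54 (SE) in WIN1SRDX, or 3.23-fold. Within slides 1, 2 and 3 it was 3.09, 1.97 and 4.81 in MYB106SRDX, and 1.84, 0.69 and 2.26 in WIN1SRDX.

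CYP79B3, which catalyses the same step, did not rise. Its levels were 1.12, -1.02, 1.02 and 2.50 in MYB106SRDX, 1.81, 0.49, 1.46 and 2.19 in WIN1SRDX, and 2.73, 2.23, 2.12 and 2.02 in wild type. Both lines overlapped with wild type, because MYB106SRDX replicate 4 and WIN1SRDX replicate 4 lay within the wild-type range. The mean differed from wild type by -1.37 ± 0.62 (SE) in MYB106SRDX and by -0.79 ± 0.62 (SE) in WIN1SRDX. Single arrays weighed on these values. Without MYB106SRDX replicate 2 the difference in that line was -0.73, without its replicate 4 it was -1.90, and within slide 3 it was 0.48. Between the lines it was -0.58 ± 0.62 (SE), and 0.06 without MYB106SRDX replicate 2.

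The oxime dehydratase genes CYP71A12 and CYP71A13 went from near the detection limit in wild type to readily measured signals in both lines. They lie near each other on chromosome 2, with 2 annotated genes between them, AT2G30760 and AT2G30766. CYP71A12 read 3.03, 4.05, 2.91 and 4.03 in MYB106SRDX, 2.46, 0.65, 1.53 and 1.47 in WIN1SRDX, and -6.95, -7.03, -6.41 and -6.24 in wild type, where replicate 1 was not well above background. In scanner units these were intensities of 13072 to 30421, 2469 to 9463 and 15.2 to 30.1. The difference from wild type was 10.16 ± 0.39 (SE), or 1146-fold, in MYB106SRDX, and 8.19 ± 0.39 (SE), or 291-fold, in WIN1SRDX. Only 3 of the 20266 tested loci had a larger rise in MYB106SRDX, and 7 in WIN1SRDX. CYP71A12 passed the detection filter through the lines only, where it is high, so these ranks are a description alone. Since the wild-type signals lie near background, the size depends on how background is removed, and with the normexp correction the differences were 8.02 and 6.09. Within slides 1, 2 and 3 they were 10.02, 9.89 and 10.27 in MYB106SRDX and 9.45, 7.06 and 7.74 in WIN1SRDX.

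CYP71A13, the dehydratase best known from camalexin synthesis, was well above background on none of the wild-type arrays. Thus CYP71A13 too passed the detection filter through the lines only. It was above background on all 8 arrays of the lines, with levels of 0.56, -0.74, -2.42 and 1.90 in MYB106SRDX and -2.65, -4.81, -0.36 and -1.46 in WIN1SRDX. Intensities were 3.67 to 4.65 in wild type, 325 to 6947 in MYB106SRDX and 56.1 to 1659 in WIN1SRDX. Every array of both lines thus exceeded every wild-type array, and the arrays within each line differed more than for any other of the 5 genes (SD 1.84 and 1.90, n = 4). CYP71A13 was set against the lowest signal measured well above background on each wild-type array. On that footing it was at least 127-fold higher in MYB106SRDX and at least 28.6-fold higher in WIN1SRDX. These bounds are 6.98 and 4.84 on the log2 scale. That lowest signal is not a strict detection limit. On wild-type replicate 1 it was -7.01, and CYP71A12 read -6.95 there without being well above background. With normexp, which lifts dim signals, the differences were 4.79 and 2.90. These lie below the bounds, which thus hold only for the scale used here. CYP71A12 and CYP71A13 are similar in sequence, as are CYP79B2 and CYP79B3. The probe sequences were not used here, so whether a probe also catches the paralog was not tested.

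PAD3, whose loss gives camalexin-deficient plants, read 4.63, 1.86, 3.94 and 6.05 in MYB106SRDX, 1.37, 0.74, 3.1 and 2.60 in WIN1SRDX, and -2.20, -3.25, -1.82 and -1.68 in wild type. It was well above background on all 12 arrays, with no overlap between either line and wild type. The lowest MYB106SRDX array, replicate 2, lay within the WIN1SRDX range. Group means were 4.12 ± 1.74 (SD, n = 4), 1.95 ± 1.09 (SD, n = 4) and -2.24 ± 0.71 (SD, n = 4). PAD3 was 82.1-fold higher than wild type in MYB106SRDX (6.36 ± 0.81, SE) and 18.3-fold higher in WIN1SRDX (4.19 ± 0.81, SE), and 69 and 113 loci had larger rises. Within slides 1, 2 and 3 the differences were 7.35, 4.73 and 7.73 in MYB106SRDX and 4.10, 2.56 and 4.53 in WIN1SRDX.

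**Figure D2:**
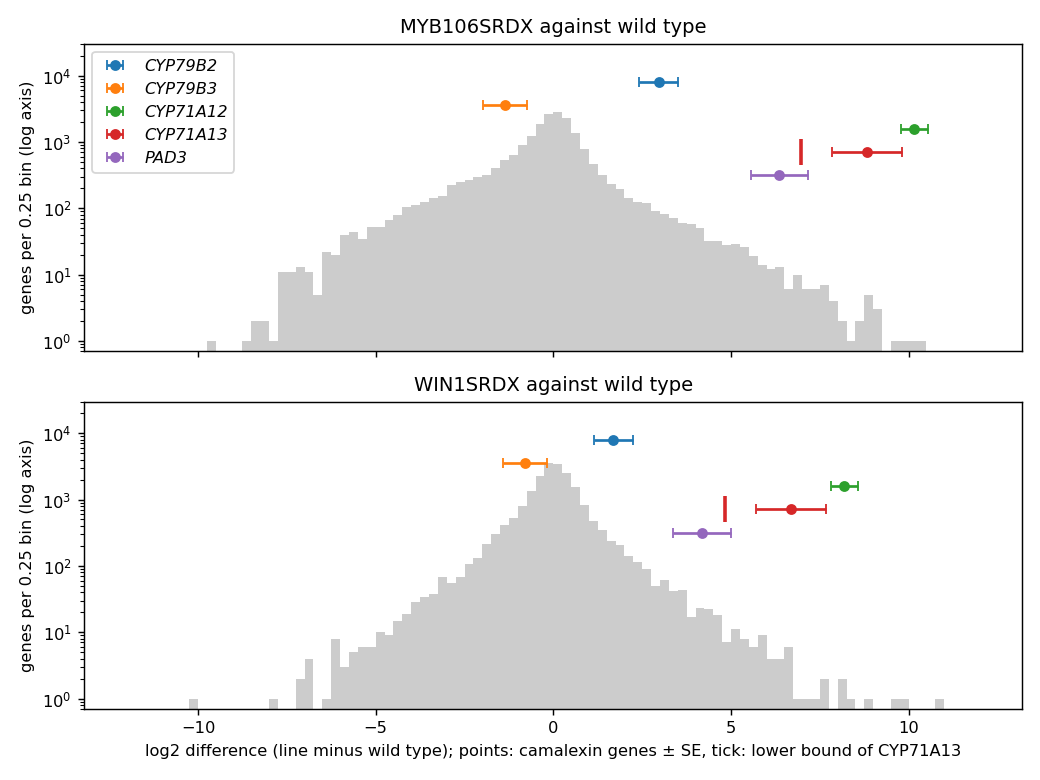
Log2 differences from wild type of all 20266 tested loci (grey, counts per bin on a log axis) with the 5 camalexin genes as points ± SE, placed at arbitrary heights, and a tick for the lower bound of CYP71A13, whose point rests on undetected wild-type signals. CYP71A12, CYP71A13 and PAD3 lie in the right tail of both lines, CYP79B2 closer in, and CYP79B3 left of 0.

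Over the 5 genes the median difference was 6.36 in MYB106SRDX and 4.19 in WIN1SRDX, beside medians of -0.05 and 0.00 over all tested loci. The central 90% of loci, from the 5th to the 95th percentile, spanned -3.15 to 2.07 in MYB106SRDX and -1.60 to 1.59 in WIN1SRDX. CYP79B2 lay above that span in both lines, if only slightly in WIN1SRDX, and CYP79B3 lay inside it in both.

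The lines also differed from each other. The mean of CYP71A12 was higher in MYB106SRDX by 1.98 ± 0.39 (SE), with all its arrays above all WIN1SRDX arrays, as was so for 15% of all loci, with 19.7% lying lower without overlap. Within slide 1 this difference was only 0.57, against 2.82 and 2.53 within slides 2 and 3. PAD3 differed by 2.17 ± 0.81 (SE), CYP71A13 by 2.14 ± 0.99 (SE) and CYP79B2 by 1.27 ± 0.54 (SE), all higher in MYB106SRDX and all with arrays that overlapped between the lines. The SE pool the spread of all 3 groups, and for these genes the wild-type arrays varied least. For CYP71A13 the SD was 0.24 in wild type, where it was undetected, and 1.84 and 1.90 in the lines. These SE thus understate the spread of the lines themselves. The median over the 5 genes was 1.98, and over all loci -0.03.

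Within a line the genes varied from array to array. WIN1SRDX replicate 2 was the lowest array of its group for all 5 genes, on average 1.3 below the group mean, and it was also the array with the many outlier marks. MYB106SRDX replicate 4 was the highest of its group for 4 of the 5 genes and on average 1.55 above the mean, and second to replicate 2 for CYP71A12. In MYB106SRDX the lowest value came from replicate 3 for CYP79B2, CYP71A12 and CYP71A13 and from replicate 2 for CYP79B3 and PAD3. These 2 arrays and WIN1SRDX replicate 2 sat on slide 2, and MYB106SRDX replicate 4 sat on slide 3. The wild-type array on slide 2, replicate 3, was the lowest of its group for none of the genes. The part of the slide was not tested. Wild-type arrays kept closer together, and for no gene was their SD above 0.71.

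**Figure D3:**
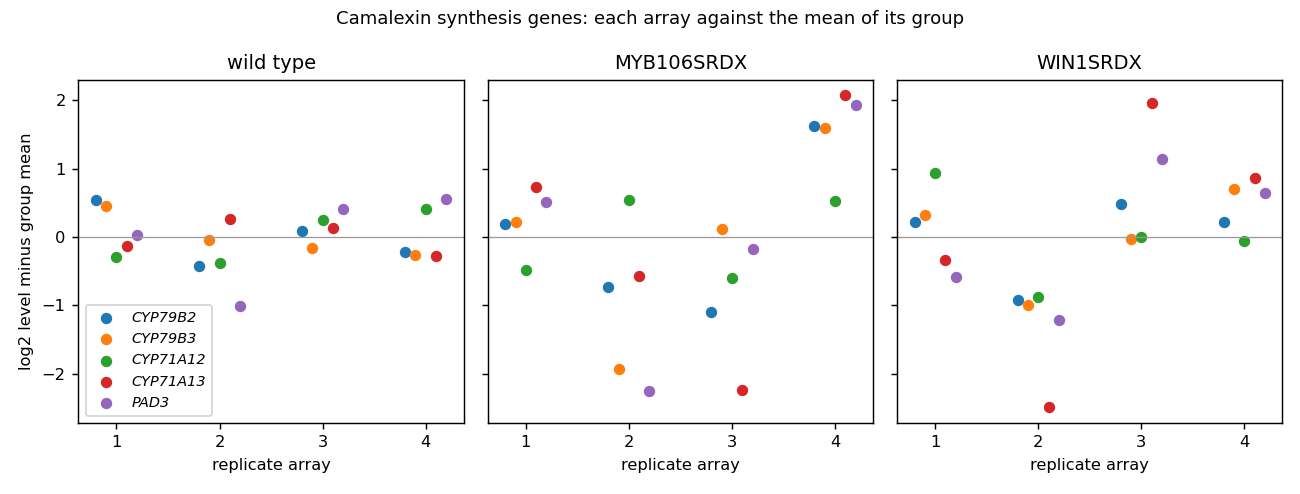
Level of each camalexin gene on each array minus the mean of its group, in log2 units, for wild type, MYB106SRDX and WIN1SRDX. WIN1SRDX replicate 2 lies below the group mean for all 5 genes, and all 5 lie above it on MYB106SRDX replicate 4.

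The likeness of patterns was measured as the root mean square (RMS) difference between genes over the 12 arrays, after centring each gene on its own mean. CYP79B2 lay 1.60 from PAD3 and 1.86 from CYP79B3, and CYP71A12 lay 2.17 from PAD3 and 5.03 from CYP79B3. The distances of CYP71A13, 1.38 to CYP71A12 and 1.54 to PAD3, rest in part on its 4 wild-type signals, which were not well above background, and are not ranked. Among 9053 other tested loci with a symbol, the closest to CYP79B2 were YLS5 (0.46), PSK6, a phytosulfokine precursor (0.49), and CYP71B6, a P450 that acts on indole-3-acetonitrile (0.50). Closest to CYP79B3 were BAT5 (0.39), FMO GS-OX1, an S-oxygenase of aliphatic glucosinolates (0.45), and HMT3 (0.46). Closest to CYP71A12 were CYP82C2 (0.84), PRX52 (0.87) and PGAZAT (0.89). The values nearest to CYP71A13 were those of ABCG40 (1.04), NHL25 (1.07) and PXMT1 (1.14). PAD3 lay nearest to PROPEP3, a precursor of defence-eliciting peptides (0.76), CRK20 (0.85) and PHT3;2 (0.92). PSK6 was well above background on 7 of the 12 arrays, PGAZAT, NHL25 and CRK20 on 8, PRX52 on 9 and CYP82C2 on 10, so their distances, like those of CYP71A13, rest partly on signals near background and their order is uncertain. These values describe these arrays, which share 3 groups.

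The genes around the pathway were described from 6 lists with 70 members, of which 69 were on the array and 68 were tested in a limma fit over all loci. In MYB106SRDX 36 of the 68 rose and 3 fell, and 29 did not pass an adjusted p of 0.05 (median difference 0.89). Of all tested loci, 52.2% passed in this comparison, 23.6% higher and 28.6% lower. The share of list members that passed, 57.4%, was thus near that of all genes. Rises outnumbered falls in the lists and not over all loci, but the lists were chosen with earlier results of these data known. Nothing is read from that split or from the later list counts. In WIN1SRDX 19 rose, 12 fell and 37 did not pass (median 0.22), a share of 45.6% where 32.6% of all loci passed, 17.4% higher and 15.2% lower. On the authors' own scale, which divides the arrays of each group by a constant, 66.5% of all calls in WIN1SRDX were rises, against 53.4% on the scale used here. Set against WIN1SRDX directly, MYB106SRDX was higher in 34 of the 68 genes and lower in 7 (60.3%, median 0.78), where 42.6% of all loci passed, 18.3% higher and 24.2% lower.

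**Figure D4:**
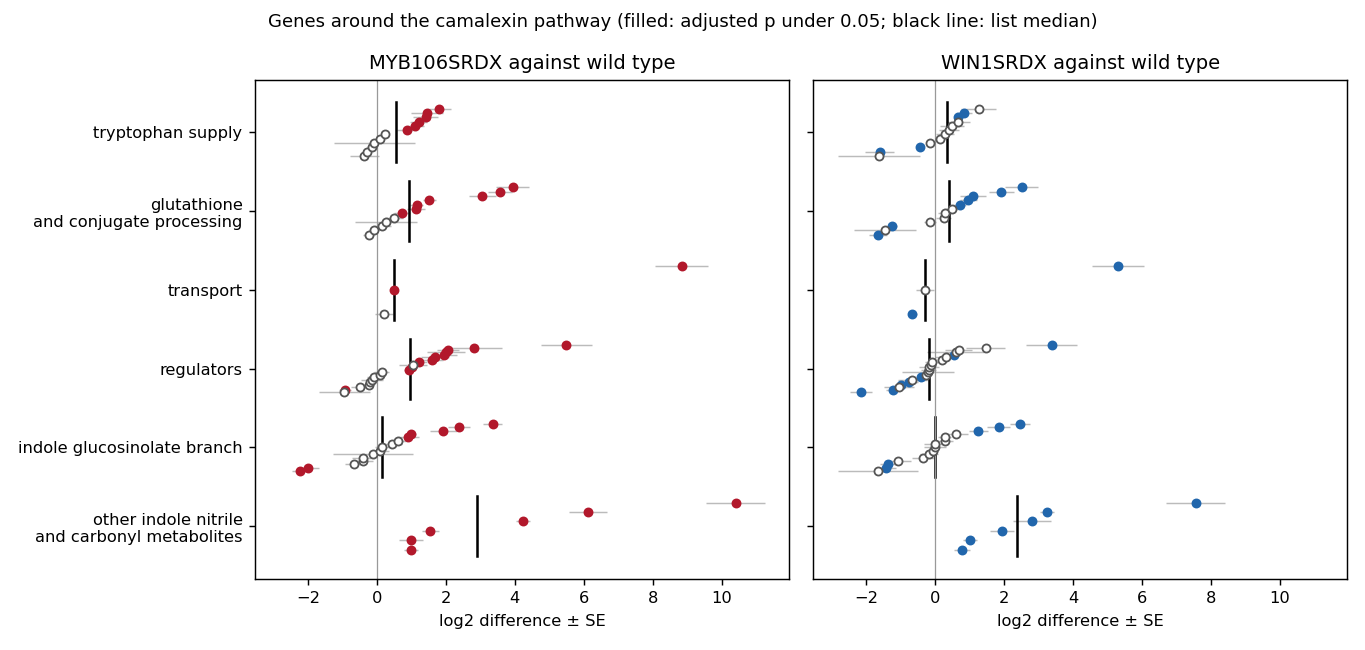
Log2 differences from wild type (± SE) of the 68 tested genes of 6 lists, 1 point per gene, filled where the adjusted p was under 0.05, with the median of each list as a black line. The genes of other indole nitrile and carbonyl metabolites all lie right of 0 in both lines, while the regulators lie mostly right of 0 in MYB106SRDX and around 0 in WIN1SRDX.

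Upstream, 6 of 12 genes of tryptophan synthesis rose in MYB106SRDX, none fell and 6 did not pass (median 0.55). The 50% that passed compare with 52.2% of all loci. ASA1, the stress-responsive anthranilate synthase subunit that starts the branch, rose by 1.80 ± 0.34 (SE, adjusted p = 0.00123). PAT1, which catalyses the step after it, rose by 1.21 (adjusted p = 0.00167), and the tryptophan synthase beta genes TSB1 and TSB2 by 1.11 and 1.41. TSA1, the alpha subunit, rose by 1.45 (adjusted p = 0.0264), a call lost in 4 of 22 alternatives (adjusted p from 0.0053 to 0.0889), and by 0.96 without MYB106SRDX replicate 4. In WIN1SRDX only PAT1 (0.84, adjusted p = 0.0215, lost without WIN1SRDX replicate 3 or 4 or wild-type replicate 3) and AT4G02610 (0.68, adjusted p = 0.00167) rose. ASB1, a beta subunit of anthranilate synthase, fell there by 1.60 on the log2 scale (adjusted p = 0.0143) and AT5G57890 by 0.43 (adjusted p = 0.0211, lost in 4 of 23 alternatives). ASA1 differed from wild type by 0.49 in WIN1SRDX (adjusted p = 0.287), TSB1 by 0.29 and TSA1, measured on 3 arrays of that line, by 1.27 (adjusted p = 0.0825, passing in 3 of 22 alternatives). ASA1 was higher in MYB106SRDX than in WIN1SRDX by 1.31 ± 0.34 (SE, adjusted p = 0.00968).

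Glutathione and its conjugates supply the sulfur of camalexin. The list of 12 genes around them also holds ATR1 and ATR2, which encode reductases of P450 enzymes. Of these 12, 7 rose in MYB106SRDX with none falling (median 0.93). The 58.3% that passed compare with 52.2% of all loci, 23.6% higher and 28.6% lower. The glutathione transferase genes GSTU4, GSTF7, GSTF6 and GSTF2 rose by 3.94 ± 0.48 (SE), 3.57 ± 0.36 (SE), 3.06 ± 0.38 (SE) and 1.52 ± 0.19 (SE), each with an adjusted p of 0.000105 or less. GSTU4 read -3.85 to -2.55 on wild-type arrays, 0.09 to 2.11 in MYB106SRDX and -1.45 to 0.26 in WIN1SRDX, so that the lines overlapped with each other but not with wild type. GSH1, which catalyses the first and limiting step of glutathione synthesis, rose by 1.15 (adjusted p = 0.000498). GGP1, a peptidase that trims the glutathione conjugate, rose by 0.73 (adjusted p = 0.0217), a call lost on the authors' scale and without wild-type replicate 2 (highest adjusted p = 0.0681).

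In WIN1SRDX 5 of these 12 rose and 2 fell (median 0.40). The 58.3% that passed compare with 32.6% of all loci, 17.4% higher and 15.2% lower. GSTU4 rose by 2.52 ± 0.48 (SE, adjusted p = 0.00285), GSTF7 by 1.92 ± 0.36 (SE, adjusted p = 0.00277) and GSTF2 by 0.72 (adjusted p = 0.0156). GSTF6, which is nearly identical to GSTF7 so that their probes may not be separate, rose by 1.11 (adjusted p = 0.0464), a call lost in 11 of 23 alternatives. The falls were those of PCS1, a phytochelatin synthase that also cleaves glutathione conjugates, by 1.66 on the log2 scale (adjusted p = 0.000991), and of ATR2, a reductase that passes electrons to P450 enzymes, by 1.23 (adjusted p = 0.00021). PCS1 rose in MYB106SRDX by 1.13 (adjusted p = 0.00378), and the lines differed in it by 2.79 ± 0.26 (SE, adjusted p = 2.09e-05). GSH1 and GGP1 differed from wild type by 0.28 and 0.25 in WIN1SRDX and did not pass.

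Of 3 ABC transporter genes tied to camalexin or related compounds, ABCG40 stood out. Its levels were -5.93 to -3.47 on wild-type arrays, 3.05 to 6.14 on MYB106SRDX arrays and -0.68 to 1.77 on WIN1SRDX arrays, and none of these ranges overlapped. The rise was 8.83 ± 0.76 (SE) in MYB106SRDX with an adjusted p of 8.86e-06, and 5.30 ± 0.76 (SE) in WIN1SRDX with an adjusted p of 0.000675. ABCG36 (PEN3), an exporter at the cell surface, rose by 0.49 in MYB106SRDX (adjusted p = 0.00534) and fell by 0.65 on the log2 scale in WIN1SRDX (adjusted p = 0.00227), and it differed by 1.14 ± 0.12 (SE, adjusted p = 4.54e-05) between the lines. ABCG34, a camalexin exporter, differed from wild type by 0.21 and -0.28 and did not pass in either line.

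Of 20 known regulators of the pathway, 10 rose and 1 fell in MYB106SRDX (median 0.97), and 2 rose and 5 fell in WIN1SRDX (median -0.18). The shares that passed, 55% and 35%, were near those of all loci, 52.2% and 32.6%. Between the lines 11 regulators were higher in MYB106SRDX, none was lower and 9 did not pass (median 1.03), where 18.3% of all loci were higher and 24.2% lower. WRKY33, the WRKY factor that binds the PAD3 promoter, read 1.32 to 1.95 on wild-type arrays, 2.76 to 4.45 in MYB106SRDX and 1.78 to 2.32 in WIN1SRDX. WRKY33 rose by 2.06 ± 0.31 (SE, adjusted p = 0.000297) in MYB106SRDX and differed by 0.32 ± 0.31 (SE, adjusted p = 0.447) in WIN1SRDX, and the difference between the lines was 1.74 ± 0.31 (SE, adjusted p = 0.00125). MYB51, an activator of indole glucosinolate and camalexin genes, also rose in MYB106SRDX, by 1.61 ± 0.30 (SE, adjusted p = 0.00119). It differed by -0.17 ± 0.30 (SE, adjusted p = 0.682) in WIN1SRDX and by 1.78 between the lines (adjusted p = 0.000922). Its relative MYB122 rose by 2.81 ± 0.83 (SE, adjusted p = 0.0154) in MYB106SRDX, where its arrays ran from -3.57 to 1.01 and overlapped with wild type. MYB122 differed by 0.61 in WIN1SRDX (adjusted p = 0.599). MYB34, the third of these factors, differed by -0.94 ± 0.75 (SE) and -0.20 ± 0.75 (SE) and did not pass. The first value rests on MYB106SRDX replicate 2, which read -2.33 where the other arrays read 0.62 to 2.09, and without it the difference was -0.03.

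ANAC042, a NAC factor needed for full camalexin induction, was the regulator with the largest rise in both lines. It read 1.26, 0.74, -1.10 and 3.24 in MYB106SRDX, -0.21, -1.91, -0.71 and -1.46 in WIN1SRDX, and -4.66 to -4.31 in wild type. ANAC042 rose by 5.49 ± 0.73 (SE) in MYB106SRDX with an adjusted p of 0.00014, and by 3.38 ± 0.73 (SE) in WIN1SRDX with an adjusted p of 0.00559. Its difference between the lines, 2.11 (adjusted p = 0.0378), was lost in 12 of 23 alternatives and was 1.37 without MYB106SRDX replicate 4. The genes of the kinases MPK3 and MPK6, which phosphorylate WRKY33, did not rise. MPK3 differed by -0.49 in MYB106SRDX (adjusted p = 0.141), or by -0.79 with an adjusted p of 0.0027 without replicate 3 of that line. It fell by 0.75 on the log2 scale in WIN1SRDX (adjusted p = 0.0493), a call lost in 13 of 23 alternatives, and MPK6 differed by -0.24 and -0.25 and did not pass, except in MYB106SRDX with quantile normalization (-0.34, adjusted p = 0.013). MKK4 and MKK5, the kinases above them, rose by 1.02 and 0.92 in MYB106SRDX (adjusted p = 0.000175 and 0.000383), and MKK5 by 0.56 in WIN1SRDX (adjusted p = 0.0123). MKK9, another activator of these kinases, was the 1 regulator that fell in MYB106SRDX, by 0.93 on the log2 scale (adjusted p = 0.00152), and it fell by 0.98 in WIN1SRDX (adjusted p = 0.00243). WRKY18 fell by 2.14 on the log2 scale in WIN1SRDX (adjusted p = 0.000708) and differed by -0.14 in MYB106SRDX (adjusted p = 0.728). The ethylene response factor gene ERF72 fell by 1.21 on the log2 scale in WIN1SRDX (adjusted p = 0.00226) and differed by 0.14 in MYB106SRDX.

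Indole glucosinolates draw on the same oxime as camalexin. Of 15 genes of that branch, 5 rose, 2 fell and 8 did not pass in MYB106SRDX (median 0.14), and 3 rose, 2 fell and 10 did not pass in WIN1SRDX (median -0.00). The shares that passed, 46.7% and 33.3%, compare with 52.2% and 32.6% of all loci. CYP83B1, which commits the oxime to glucosinolates, rose by 0.90 ± 0.31 (SE, adjusted p = 0.0302) in MYB106SRDX, a call lost in 8 of 23 alternatives (highest adjusted p = 0.085), and differed by 0.00 ± 0.31 (SE, adjusted p = 0.998) in WIN1SRDX. CYP81F1, a hydroxylase of the indole ring, rose by 3.36 and 1.26 (adjusted p = 7.52e-06 and 0.00682). CYP81F2, the hydroxylase needed for the glucosinolate defence at fungal entry sites, rose by 2.37 ± 0.32 (SE, adjusted p = 0.000156) in MYB106SRDX and differed by -0.34 (adjusted p = 0.441) in WIN1SRDX. The myrosinase gene PEN2, measured on 3 wild-type arrays, rose by 0.99 in MYB106SRDX (adjusted p = 0.000235), and GSTU13 fell in both lines, by 2.22 and 1.37 on the log2 scale (adjusted p = 2.45e-05 and 0.00141). CYP81F3 rose in WIN1SRDX by 2.48 (adjusted p = 0.000221) and differed by -0.40 in MYB106SRDX (adjusted p = 0.266), or by -0.73 with an adjusted p of 0.0054 without replicate 4 of that line. Of the methyltransferase genes of this branch, IGMT5 rose by 1.85 in WIN1SRDX (adjusted p = 0.00218) and IGMT1 fell, at -1.41 (adjusted p = 0.00309). In MYB106SRDX they differed by -0.39 and -0.66 and did not pass, though IGMT1 passed as a fall in 5 of 23 alternatives (lowest adjusted p = 0.0268).

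All 6 tested genes of other compounds made from the oxime or the nitrile rose in both lines (median 2.89 in MYB106SRDX and 2.38 in WIN1SRDX). Of all loci, 23.6% rose in MYB106SRDX and 17.4% in WIN1SRDX. CYP82C2, the hydroxylase that finishes an indole carbonyl nitrile made by way of CYP71A12, read 1.12 to 4.30 and -1.53 to 2.43 on the arrays of the lines, and -8.05 to -6.97 on wild-type arrays, 2 of which were well above background. Its differences were 10.40 ± 0.85 (SE) in MYB106SRDX and 7.56 ± 0.85 (SE) in WIN1SRDX. CYP82C2 passed the detection filter through the lines only, where it is high. Its p-values depend on that filter and are not given, and its place among the 6 rests on the same condition. The sizes rest partly on wild-type signals not well above background. AT1G26380 rose by 6.12 ± 0.55 (SE) and 2.81 ± 0.55 (SE), with adjusted p of 1.17e-05 and 0.00352, and its arrays did not overlap between any groups. NIT2, a nitrilase that can turn indole-3-acetonitrile into auxin, rose by 4.23 ± 0.20 (SE) and 3.25 ± 0.20 (SE), with adjusted p of 3.37e-07 and 1.04e-05. Its neighbours NIT1 and NIT3, which are similar in sequence, rose by 0.98 and 0.99 in MYB106SRDX, the call of NIT3 being lost in 9 of 23 alternatives, and by 1.01 and 1.94 in WIN1SRDX. AAO1, an aldehyde oxidase, rose by 1.55 (adjusted p = 0.000406) and 0.79 (adjusted p = 0.0304), the second call lost in 8 of 23 alternatives. CYP71A18, the closest further relative of CYP71A12, was left untested because no group showed it well above background on each of its arrays.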

How the data were processed

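The deposited scanner files hold, per the file headers, for each spot of a 1-colour (Cy3) Agilent array, an intensity that Feature Extraction had already corrected for background, and flags. The version was 9.1.3.1, per the submitters' processing notes. The authors' value table holds, for each probe, a ratio of that intensity to a constant: 1082.6 for MYB106SRDX, 995.6 or 995.7 for WIN1SRDX and 1264.0 for wild type, within 1% for 100% of probes. It is linear, not centred, and has column medians of 0.0598 to 0.137. The sources used here do not say why the constants differ.

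From the deposited intensity, log2 was taken and each array's 75th percentile over the 37685 non-control spots subtracted. Outlier spots were left out, and spots of a probe were averaged. The probe with the highest mean stood for a locus (25665 loci). Loci well above background on all 4 arrays of a group were tested with limma 3.58.1 in R 4.3.3 (3 groups in 1 fit, 9 residual degrees of freedom, Benjamini-Hochberg over 20266 loci). No arrays held identical values. The number of arrays limits the precision. Samples with the same replicate number did not deviate together (correlations from -0.16 to 0.20).

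The camalexin genes and the 6 lists were chosen with earlier results of these data known. Named list genes were those with the 4 lowest p of each list per line among those passing, plus 22 pathway genes taken whatever their values. NIT1, PAI1 and ATR1 were named outside this rule, after their values were seen. Names came from RefSeq (TAIR10.1), which gives no symbol for 4 list members; these go by locus. No sequences were used, and RefSeq positions served only to tell which genes neighbour each other.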

Additional observations from a re-analysis of the deposited data

Results flagged for a closer look

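Among the camalexin genes and the genes named by the rule above, 49 in all with 147 groups, each group of 4 arrays was searched for an array far from its fellows. Groups with a missing value, TSA1 in WIN1SRDX and PEN2 in wild type, were passed over. Chance alone marks about 1 in 20 groups, and 8 were found, none for a camalexin gene. In WIN1SRDX replicate 2, MYB122 read -4.79 where the other arrays read -2.88 to -2.52, GSTF2 read 4.80 against 5.52 to 5.60, and CYP81F3 read -0.09 against 0.48 to 0.59. Other list genes were not searched, and some lay further off on this array. PAI1 read -4.86 there against 1.29 to 1.53 on the other WIN1SRDX arrays, and ATR1 -1.52 against 3.18 to 3.38. In MYB106SRDX, MKK5 read 2.12 in replicate 2 against 1.68 to 1.71, and CYP81F3 read -1.50 in replicate 4 against -2.87 to -2.78. In wild type replicate 2, MKK9 read 1.79 against 2.38 to 2.48 and IGMT5 read 1.73 against 2.65 to 2.73. CYP82C2 read -8.05 in wild type replicate 3 against -7.13 to -6.97, with 2 of the 4 arrays well above background.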

How the results depend on the processing

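Without any single array, and under the scaling, background, filter, probe and block alternatives, the signs of the 5 camalexin differences from wild type were kept. The exception by slide was CYP79B3 in MYB106SRDX, at 0.48 within slide 3. Without single arrays, in the order CYP79B2, CYP79B3, CYP71A12 and PAD3, the differences ranged from 2.42 to 3.33, -1.90 to -0.73, 9.98 to 10.36 and 5.71 to 7.11 in MYB106SRDX, and from 1.53 to 2.0, -1.02 to -0.46, 7.87 to 8.48 and 3.81 to 4.6 in WIN1SRDX. Between the lines they ranged from 0.73 to 1.64, -1.11 to 0.06, 1.69 to 2.29 and 1.52 to 2.92, and for CYP71A13 from 1.31 to 2.89. CYP71A13 was undetected on all wild-type arrays, so its differences from wild type below rest on signals near background and are not measured folds. Without single arrays they ranged from 8.14 to 9.58 in MYB106SRDX and 6.03 to 7.52 in WIN1SRDX, where the bounds are 6.98 and 4.84. With normexp CYP71A12 was at 8.02 in MYB106SRDX and 6.09 in WIN1SRDX, and CYP71A13 at 4.79 and 2.90. With dim signals raised to the lowest detected signal it was at its bounds.

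Within slides, which hold 1 or 2 arrays of a group, MYB106SRDX was at 1.97 (slide 2) and 4.81 (slide 3) for CYP79B2, at 4.73 and 7.73 for PAD3 and, against undetected wild-type signals, at 7.29 and 11.18 for CYP71A13. WIN1SRDX was at 0.69 and 2.26 for CYP79B2, -1.63 and -0.20 for CYP79B3, 4.06 and 8.37 for CYP71A13 against the same undetected signals, 2.56 (slide 2) for PAD3, and 9.45 (slide 1) and 7.06 (slide 2) for CYP71A12. Between the lines slide 3 gave 2.55 for CYP79B2 and 0.68 for CYP79B3, and CYP71A12 was at 0.57 (slide 1) and 2.82 (slide 2). GSTU13 turned to 0.07 within slide 1 and NIT3 to 0.08 within slide 2 between the lines. The causes were not tested.

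With the replicate number as a block, which the data gave no ground for, 38, 32 and 40 related genes were called in MYB106SRDX and in WIN1SRDX against wild type and between lines, in that order, where 39, 31 and 41 were called without it, and 10030, 5860 and 8012 loci, where 10586, 6605 and 8624 were called without it. An array correlated best with its own number in 0, 1 and 0 of 4 pairs. Without single arrays the related calls ranged from 34 to 42, 26 to 33 and 30 to 40, and the calls over all loci from 9167 to 10806, 4850 to 7464 and 7719 to 8657. A fit on only the 2 groups compared gave 39, 36 and 29 related calls, in the same order. Over all loci it gave 10701, 8271 and 6277 calls. The counts between the lines thus fell below these ranges once the wild-type arrays were left out of the fit. The authors' scale moved the median of all loci by 0.12 in WIN1SRDX against wild type and by -0.16 between the lines, where 25.6% of calls were higher in MYB106SRDX, against 43.1%. Requiring signal above background on all 12 arrays left no value for CYP71A12 and CYP71A13. Counts of calls were not run within slides. Signals near background limit the folds of CYP71A12, CYP71A13 and CYP82C2.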
